A study of Danio rerio with 11 samples.

Results

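The comparison described here sets RNA that came down with eIF4E1b against RNA that came down with eIF4E1c in 8-cell embryos of the zebrafish, Danio rerio. Its members were chosen by their labels alone: the 3 eIF4E1b RIP libraries and the 2 eIF4E1c RIP libraries, 5 of the 11 libraries of the series, with all genes of the count tables, of which 14127 were tested. In RNA immunoprecipitation (RIP), a tagged protein is pulled out of a lysate with an antibody on beads, and the RNA that stays with it is sequenced. The eIF4E1b embryos carried tg(actb2:3xflag-sfGFP-eIF4E1b) and the eIF4E1c embryos tg(actb2:3xflag-sfGFP-eIF4E1c). Both transgenes are driven by the actb2 promoter and encode a Flag and GFP tagged form of the factor, anti-GFP beads were used for both, and no label says that the embryos' own untagged factors were removed. The comparison is therefore between 2 tagged and transgenically expressed proteins, with no RIP from embryos that lack a tagged protein among the libraries used here. The other 6 libraries, 3 eIF4E1b input and 3 eIF4E1c input, are total RNA of the same kinds of lysate, made with another library kit, and serve below only to show how far the RNA pools of the lines differed. The labels call the libraries of a group biological replicates without saying how their embryos were collected, so p-values measure the spread between these libraries.

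Factors of the eIF4E family bind the cap at the 5′ end of an mRNA. The canonical member then recruits eIF4G, a scaffold that brings in the small ribosomal subunit, while 4E-binding proteins such as the eIF4EBPs compete for the same surface and keep the mRNA from being translated. eIF4E1b is a germline form and eIF4E1c a form found in fish, and both belong to the class with the conserved cap pocket. At the 8-cell stage the embryo's own genome is almost silent, so the transcripts available to either factor are those the mother placed in the egg.

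The RIP libraries held between 13035977 and 13993294 counts for eIF4E1b and 6943631 and 10734469 counts for eIF4E1c. Counts for at least 1 read were found for 18480 to 19408 genes in eIF4E1b RIP, against 15114 and 17520 genes in eIF4E1c RIP. Across 12773 genes with a mean above 20 normalized counts, log2 values correlated with Pearson's r between 0.93 and 0.96 within eIF4E1b RIP, with 0.81 between the 2 eIF4E1c RIP libraries, and with 0.74 to 0.85 between the proteins. These coefficients are across genes, which are not independent replicates. The first eIF4E1c RIP library is thus the shallowest of the 11 libraries and stands apart from the others. For each list of genes described below, the counts that moved by over 1.5 times and the medians that changed sign when a single library was left out are given beside it. Normalized counts below are counts divided by the size factors of DESeq2 over the 5 RIP libraries. Fold changes are eIF4E1b RIP over eIF4E1c RIP on the log2 scale, and a gene is called where its Benjamini-Hochberg adjusted p from the Wald test of DESeq2 is under 0.005. Unless stated otherwise, every p printed beside a gene is that adjusted p.

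Of the 14127 genes tested, 1123 (7.95%) were called. The calls toward eIF4E1b, that is with higher counts in eIF4E1b RIP, numbered 486 (3.44%), and those toward eIF4E1c numbered 637 (4.51%). Of these, 463 and 616 have a symbol. In such bulk lysates, fewer cells of a kind and less RNA per cell cannot be told apart. The quasi-likelihood test of edgeR was far more cautious at the same threshold, with 2 genes in each direction (1896 and 2149 at an unadjusted p under 0.05), namely ATF3 and ccdc88b toward eIF4E1b and AK1 and ppt2a.3 toward eIF4E1c, so that all other calls below were lost with it. At an adjusted p under 0.05 DESeq2 called 1206 (7.84%) and 1414 (9.2%) genes. At that threshold edgeR called 484 (3.24%) and 833 (5.58%) genes, which included 421 of the 486 and 621 of the 637. Leaving out 1 library gave between 155 and 1013 calls toward eIF4E1b and between 283 and 1156 toward eIF4E1c, with the lowest values without eIF4E1b RIP replicates 2 and 3 and the highest without eIF4E1c RIP replicate 2. Without the first eIF4E1c RIP library the counts were 474 and 370, so that the direction with more calls turned. Among all tested genes, all 3 eIF4E1b RIP libraries lay above both eIF4E1c RIP libraries for 23.2% and below both for 21.6%.

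The abundance of called genes was read in the RIPs and in the inputs. Genes higher in eIF4E1b RIP had a median of 567 normalized counts in eIF4E1b RIP and 125 in eIF4E1c RIP, and genes higher in eIF4E1c RIP had a median of 146 in eIF4E1b RIP and 665 in eIF4E1c RIP. In the inputs, however, the median was 236 for genes higher in eIF4E1b RIP, 512 for genes higher in eIF4E1c RIP and 262 for tested genes without a call. When the tested genes were put into 10 groups of rising mean count in the RIPs, the calls toward eIF4E1b and eIF4E1c numbered 15 and 11, 39 and 20, and 54 and 29 in groups 1 to 3, and 43 and 52 in group 4. They numbered 154 and 399 in groups 5 to 8 together, 46 and 65 in group 9, and 135 and 61 in the group with the highest counts. Calls toward eIF4E1b were thus the more frequent ones in the lowest 3 groups and in the highest one. Among the most abundant transcripts of eIF4E1b RIP were several of the called genes described below (fbxo5, ccnp, ska2, GMNN), whereas NASP, a histone chaperone and the most abundant transcript of that RIP, missed the threshold. NASP (ENSDARG00000039208) had 124983, 247397 and 422789 normalized counts in eIF4E1b RIP, against 108875 and 63791 in eIF4E1c RIP, with a log2 fold change of 1.62 ± 0.53 (SE), adjusted p = 0.0167.

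For some called genes the inputs differed as well. Of the 486 genes called toward eIF4E1b, 22.2% had an input ratio of at least 1 on the log2 scale toward the eIF4E1b line, against 4.35% of all tested genes. For the 637 genes called toward eIF4E1c the share was 8.79%, against 3.28% of all tested genes. The other called genes, 378 toward eIF4E1b and 578 toward eIF4E1c, were within 1 of each other in the inputs, apart from 3 genes toward eIF4E1c that went the opposite way. Where given below, the input ratio is the log2 ratio of the mean normalized counts of 3 eIF4E1b and 3 eIF4E1c input libraries, each with 1 added. It was not tested.

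**Figure D1:**
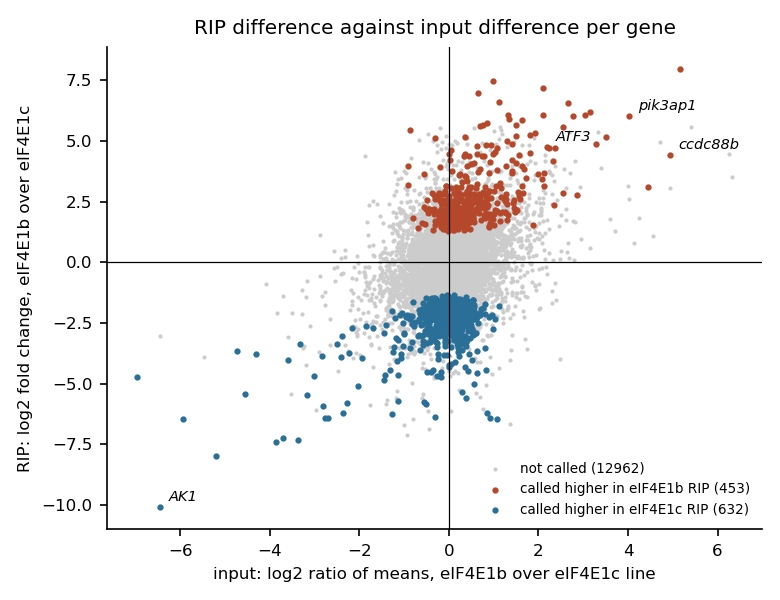
Each point is a tested gene, with the log2 ratio of mean input counts (eIF4E1b over eIF4E1c line) on the horizontal axis and the log2 fold change between the RIPs on the vertical axis, red for genes called higher in eIF4E1b RIP, blue for those called higher in eIF4E1c RIP and grey for the rest; 80 genes with 0 counts in every RIP library of one protein are left out. Most called genes lie near an input ratio of 0, and an outer group, with ATF3, ccdc88b, pik3ap1 and AK1 named, differs in the inputs as well.

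The bait genes were read as levels, since the transgenes carry their coding sequence. EIF4E1B (ENSDARG00000014565) had 2473, 2756 and 2805 normalized counts in eIF4E1b RIP, against 884 and 942 in eIF4E1c RIP, with a log2 fold change of 1.55 ± 0.36 (SE), adjusted p = 0.000509 and an input ratio of 1.88. eif4e1c (ENSDARG00000012274) had 4311, 3571 and 2299 normalized counts in eIF4E1b RIP, against 2235 and 3292 in eIF4E1c RIP, and the groups overlapped (log2 fold change 0.30 ± 0.43 (SE), adjusted p = 0.694, input ratio -0.69). The DESeq2 call was lost in the case of EIF4E1B without eIF4E1b RIP replicate 2 or 3 (adjusted p = 0.0251 and 0.0183).

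Several of the strongest differences were of the kind that the inputs share. ATF3 (ENSDARG00000007823), a transcription factor of the stress response, had 1975, 2821 and 2169 normalized counts in eIF4E1b RIP, against 105 and 69.5 in eIF4E1c RIP, so that the lowest eIF4E1b value was far above the highest eIF4E1c value (log2 fold change 4.75 ± 0.43 (SE), adjusted p = 7.43e-25, input ratio 2.19). ccdc88b (ENSDARG00000076189) had 963, 937 and 596 normalized counts in eIF4E1b RIP, against 43.7 and 35.1 in eIF4E1c RIP (log2 fold change 4.42 ± 0.47 (SE), adjusted p = 3.40e-17, input ratio 4.94). pik3ap1 (ENSDARG00000078285), an adaptor of phosphoinositide 3-kinase, had 1082, 398 and 98.9 normalized counts in eIF4E1b RIP, against 3.8 and 11.4 in eIF4E1c RIP, with a wide spread within eIF4E1b RIP (log2 fold change 6.02 ± 0.86 (SE), adjusted p = 1.91e-09, input ratio 4.03). In the other direction AK1 (ENSDARG00000001950), adenylate kinase, had 0, 1.73 and 0.891 normalized counts in eIF4E1b RIP, against 1397 and 451 in eIF4E1c RIP (log2 fold change -10.09 ± 1.02 (SE), adjusted p = 2.08e-19, input ratio -6.44). The eIF4E1b libraries had between 0 and 2 reads of it. tmem45a (ENSDARG00000070743) had 2.33, 9.53 and 4.46 normalized counts in eIF4E1b RIP, against 348 and 259 in eIF4E1c RIP (log2 fold change -5.81 ± 0.67 (SE), adjusted p = 9.60e-15, input ratio -2.28), and DSCAM (ENSDARG00000024865), a cell adhesion molecule, had 0.777, 4.33 and 1.78 normalized counts in eIF4E1b RIP, against 572 and 121 in eIF4E1c RIP (log2 fold change -7.25 ± 0.88 (SE), adjusted p = 2.97e-13, input ratio -3.71). The part of the input difference in these RIP differences was not tested. Lost with DESeq2 was the call of pik3ap1 without eIF4E1c RIP replicate 1 (adjusted p = 0.0111).

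Other called genes had smaller input ratios. fbxo5 (ENSDARG00000039020), the inhibitor of the anaphase-promoting complex also known as Emi1, had 94502, 121559 and 140428 normalized counts in eIF4E1b RIP, against 17307 and 22378 in eIF4E1c RIP, with all eIF4E1b libraries above both eIF4E1c libraries (log2 fold change 2.58 ± 0.39 (SE), adjusted p = 1.03e-08, input ratio -0.05). ccnp (ENSDARG00000055250), a cyclin, had 41510.2, 88898 and 54890.3 normalized counts in eIF4E1b RIP, against 4935 and 9224 in eIF4E1c RIP (log2 fold change 3.12 ± 0.47 (SE), adjusted p = 1.33e-08, input ratio -0.07). DCAF5 (ENSDARG00000060320), a substrate receptor of CUL4 ubiquitin ligases, had 2645, 1995 and 2175 normalized counts in eIF4E1b RIP, against 219 and 380 in eIF4E1c RIP (log2 fold change 2.92 ± 0.42 (SE), adjusted p = 2.54e-09, input ratio -0.09). The 15 genes with a symbol and the smallest adjusted p toward eIF4E1b held fbxo5, ccnp, DCAF5, ATF3, ccdc88b and pik3ap1, and also cfap210, EVL, polr1g, NAT9, aftphb, si:dkey-15h8.13, claudin 11 (CLDN11, ENSDARG00000030723), si:dkey-1b17.5 (ENSDARG00000101425) and si:dkey-108k21.23. Toward eIF4E1c, ppt2a.3 (ENSDARG00000014208), a palmitoyl-protein thioesterase, had 229, 246 and 192 normalized counts in eIF4E1b RIP, against 2802 and 2037 in eIF4E1c RIP (log2 fold change -3.44 ± 0.40 (SE), adjusted p = 1.13e-14, input ratio -0.08). A further thioesterase gene was called in the same direction. PPT2 (ENSDARG00000093176), of the same family, had 328, 396 and 326 normalized counts in eIF4E1b RIP, against 2918 and 2677 in eIF4E1c RIP (log2 fold change -3.00 ± 0.38 (SE), adjusted p = 2.52e-12, input ratio 0.55). TMEM39A (ENSDARG00000102746) had 48.2, 71 and 45.5 normalized counts in eIF4E1b RIP, against 538 and 552 in eIF4E1c RIP (log2 fold change -3.31 ± 0.46 (SE), adjusted p = 6.35e-10, input ratio -0.09). Also among the 15 in this direction were tmc6b, UCP2, BLCAP, fancm, sumo3a, ppp1caa, si:ch1073-190k2.1, amy2al1 and a ribosomal RNA.

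To see which functions the called genes serve, 54 lists of genes were drawn up by symbol. All of them were chosen with earlier results of these data known, 12 of them after the called genes had been read, so that the counts describe what was seen and none is independent evidence. Those 12 are named as added. All lists together hold 146 of the 486 genes called toward eIF4E1b and 229 of the 637 called toward eIF4E1c. For each list the count of called members is to be read against 3.44% and 4.51% of all tested genes, and its median log2 fold change against -0.01 for all tested genes. No test of the lists was made. Most list members are given without their input ratio. Toward eIF4E1b, it was at least 1 for the only chaperone, motor and Wnt calls and for 2 of 5 junction calls. The same held for 1 of 8 mitochondrial gene expression, 1 of 5 NF-kappa-B and 1 of 6 ubiquitin ligase calls. So it did for 1 of 3 DNA repair, 1 of 3 mRNA storage, 1 of 4 zinc finger and 1 of 2 MAP kinase calls. Further such calls were 1 of 3 solute carrier, 1 of 2 tetraspanin and 1 of 5 centrosome calls. Toward eIF4E1c, it was -1 or lower for 2 of 6 selenoprotein and 3 of 8 solute carrier calls. There it was also so for 1 of 10 ER glycosylation, 1 of 9 polymerase II and 1 of 4 DNA repair calls. It reached neither limit for any call of the ribosome biogenesis (15 and 1), spliceosome (3 and 13) and mitochondrial ribosome (8 and 1) lists. Whichever single library was left out, 31 of the 146 and 78 of the 229 called members kept their call, whereas 115 and 149 lost it at least once. In every called gene whose values are given, the 3 eIF4E1b and the 2 eIF4E1c libraries did not overlap. The same held for all 486 genes called toward eIF4E1b and for 630 of the 637 called toward eIF4E1c. Such separation, wherever it is given, therefore adds no support to a call.

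**Figure D2:**
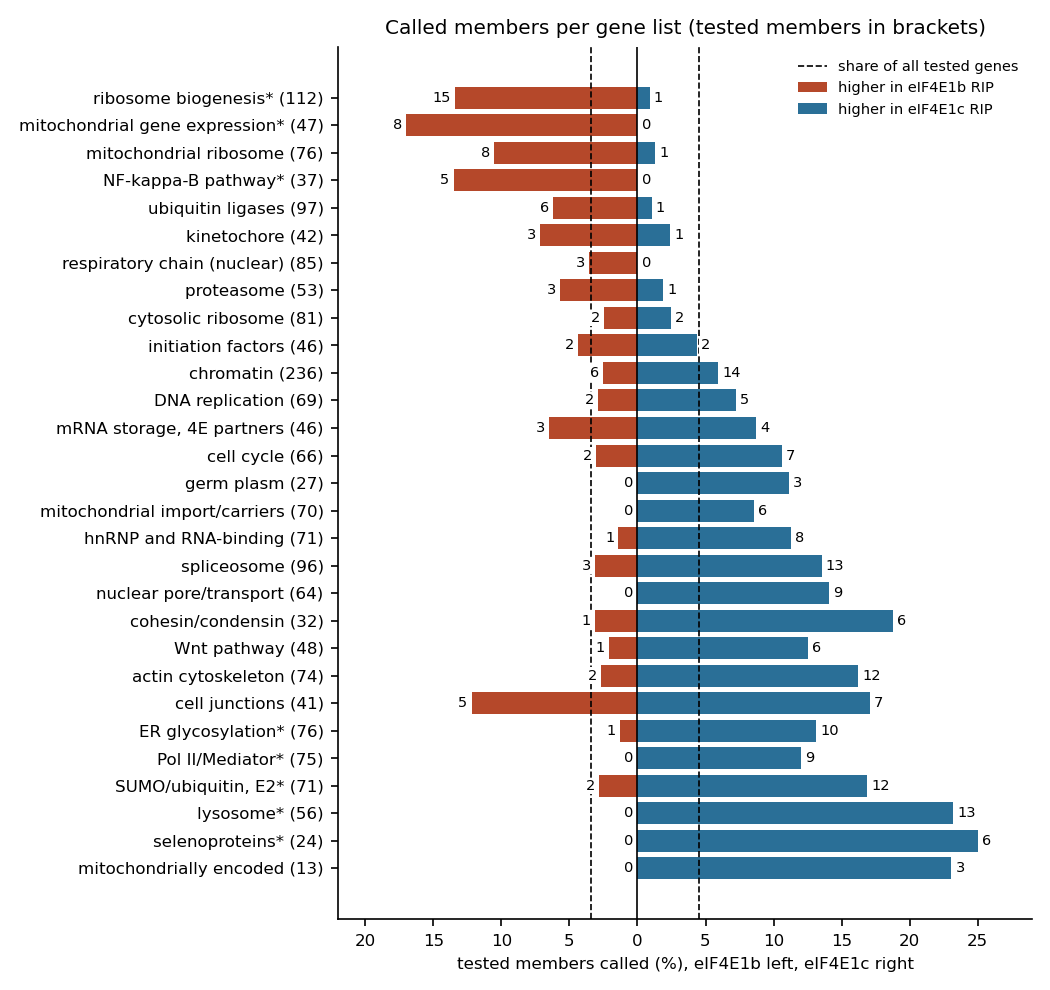
Bars give the percentage of the tested members that were called in a selection of the lists, to the left for higher in eIF4E1b RIP (red) and to the right for higher in eIF4E1c RIP (blue), with the number of called members at the end of each bar, the number tested in brackets, and asterisks for lists added after the values were seen. Histones, the clone set and tetraspanins are among the lists not drawn. Dashed lines mark the 3.44% and 4.51% of all tested genes. Among the lists drawn, mitochondrial gene expression, the NF-kappa-B pathway and ribosome biogenesis pass the left line by far. Selenoproteins, the lysosome and mitochondrially encoded genes pass the right line by far.

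Transcripts for building ribosomes were called mostly toward eIF4E1b. In the added list of ribosome biogenesis and RNA polymerase I, 15 of 112 tested members were called toward eIF4E1b (13.4%) and 1 toward eIF4E1c (0.893%), with a median log2 fold change of 0.43. Ribosome biogenesis counts became 6 without eIF4E1b RIP replicate 2 and 8 without eIF4E1b RIP replicate 3 (toward eIF4E1b), and 0 without eIF4E1c RIP replicate 1 and 7 without eIF4E1c RIP replicate 2 (toward eIF4E1c). The called members cover transcription of ribosomal RNA genes (polr1g and TAF1A) and assembly of both subunits (UTP11, LTV1, RRP15, RPF1, surf6, NIFK, nop53). polr1g (ENSDARG00000090386), a subunit of RNA polymerase I, had 9703, 10588 and 10494 normalized counts in eIF4E1b RIP, against 1762 and 1471 in eIF4E1c RIP, with little spread within either group (log2 fold change 2.67 ± 0.36 (SE), adjusted p = 1.27e-10). UTP11 (ENSDARG00000039958), a component of the small subunit processome, had 16197, 24519.5 and 30836 normalized counts in eIF4E1b RIP, against 4393 and 3802 in eIF4E1c RIP (log2 fold change 2.54 ± 0.41 (SE), adjusted p = 1.76e-07). surf6 (ENSDARG00000035427), a nucleolar protein, had 3921, 5843 and 6881 normalized counts in eIF4E1b RIP, against 996 and 1015 in eIF4E1c RIP (log2 fold change 2.46 ± 0.41 (SE), adjusted p = 2.26e-07), and RRP15 (ENSDARG00000013478), a factor of large subunit assembly, had 2128, 2879 and 3102 normalized counts in eIF4E1b RIP, against 610.2 and 749 in eIF4E1c RIP (log2 fold change 1.99 ± 0.39 (SE), adjusted p = 2.36e-05). In each of these the 3 eIF4E1b libraries lay above both eIF4E1c libraries. The exception was MDN1, the large ATPase that remodels large subunit precursors. MDN1 (ENSDARG00000008976) had 365, 663 and 445 normalized counts in eIF4E1b RIP, against 13996 and 1388 in eIF4E1c RIP, so that the 2 eIF4E1c libraries differed widely but both lay above all eIF4E1b libraries (log2 fold change -3.97 ± 0.69 (SE), adjusted p = 1.21e-06). The ribosomal proteins themselves were called in both directions, at shares below the 3.44% and 4.51% of all tested genes. Of the cytosolic ribosomal proteins, 2 of 81 tested members were called toward eIF4E1b (2.47%) and 2 toward eIF4E1c (2.47%). Their median log2 fold change was -0.16. Cytosolic ribosomal protein counts became 0 without eIF4E1b RIP replicate 2 or 3 and 1 without eIF4E1c RIP replicate 2 (toward eIF4E1b), and 1 without eIF4E1b RIP replicate 1 or 3 and 1 without eIF4E1c RIP replicate 1 (toward eIF4E1c). The median of the list turned to 0.10 without eIF4E1b RIP replicate 1 and 0.03 without eIF4E1c RIP replicate 1. RPL21 and RPL36 were called toward eIF4E1b, and RPS12 was among those called toward eIF4E1c. The DESeq2 call was lost in the case of MDN1 without eIF4E1c RIP replicate 1 (adjusted p = 0.0147).

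Genes that express the mitochondrial genome were also called mostly toward eIF4E1b. Of the nuclear genes for mitochondrial ribosomal proteins, 8 of 76 tested members were called toward eIF4E1b (10.5%) and 1 toward eIF4E1c (1.32%), with a median log2 fold change of 0.50. Mitochondrial ribosomal protein counts became 1 without eIF4E1b RIP replicate 2, 2 without eIF4E1b RIP replicate 3, 4 without eIF4E1c RIP replicate 1 and 20 without eIF4E1c RIP replicate 2 (toward eIF4E1b), and 0 without eIF4E1b RIP replicate 2 or 3 (toward eIF4E1c). MRPS33 (ENSDARG00000020015), a protein of the small mitochondrial subunit, had 3530.1, 7905 and 7412 normalized counts in eIF4E1b RIP, against 616 and 1224 in eIF4E1c RIP (log2 fold change 2.77 ± 0.49 (SE), adjusted p = 1.95e-06). MRPL17 (ENSDARG00000075677), a protein of the large subunit, had 1807, 1908 and 2109 normalized counts in eIF4E1b RIP, against 606 and 546 in eIF4E1c RIP (log2 fold change 1.75 ± 0.37 (SE), adjusted p = 9.44e-05), and the members MRPL32, MRPL11, MRPL47, MRPL1, MRPL40 and MRPL46 were called in the same direction with log2 fold changes from 1.55 to 1.98. MRPL43 went against them. MRPL43 (ENSDARG00000076334) had 66.8, 68.4 and 60.6 normalized counts in eIF4E1b RIP, against 336 and 300 in eIF4E1c RIP (log2 fold change -2.28 ± 0.47 (SE), adjusted p = 4.53e-05). In the added list of mitochondrial transcription, RNA processing and translation, 8 of 47 tested members were called toward eIF4E1b (17%) and 0 toward eIF4E1c (0%, with 2 at an unadjusted p under 0.05 and 0 by edgeR at 0.05), with a median log2 fold change of 0.52. Mitochondrial gene expression counts became 1 without eIF4E1b RIP replicate 1, 2 or 3 and 4 without eIF4E1c RIP replicate 1 (toward eIF4E1b), and 1 without eIF4E1c RIP replicate 2 (toward eIF4E1c). Its called members include POLRMT, the mitochondrial RNA polymerase, the transcription factors tfb2m and TFB1M, MTPAP, the mitochondrial poly(A) polymerase, and WARS2, the mitochondrial tryptophanyl-tRNA synthetase. The groups did not overlap in either example. POLRMT (ENSDARG00000101220) had 914, 735 and 1279 normalized counts in eIF4E1b RIP, against 285 and 296 in eIF4E1c RIP (log2 fold change 1.75 ± 0.43 (SE), adjusted p = 0.000913). WARS2 (ENSDARG00000011801) had 209.7, 162 and 159 normalized counts in eIF4E1b RIP, against 19 and 28.6 in eIF4E1c RIP (log2 fold change 2.86 ± 0.57 (SE), adjusted p = 2.37e-05). Leaving out 1 library, DESeq2 lost the calls of MRPL17 without eIF4E1b RIP replicate 2 or 3 (adjusted p = 0.00878 and 0.00807), of MRPL43 without eIF4E1b RIP replicate 2 or 3 (0.00525 and 0.00591), of POLRMT without eIF4E1b RIP replicate 1, 2 or 3 (0.00598, 0.00698 and 0.0378), and of WARS2 without eIF4E1b RIP replicate 1 (0.00512).

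Other nuclear genes for mitochondrial proteins were counted separately. For subunits of the respiratory chain, 3 of 85 tested members were called toward eIF4E1b (3.53%) and 0 toward eIF4E1c (0%, with 8 at an unadjusted p under 0.05 and 0 by edgeR at 0.05), with a median log2 fold change of 0.36. Respiratory chain counts became 7 without eIF4E1b RIP replicate 1, 0 without eIF4E1b RIP replicate 2 or 3 and 1 without eIF4E1c RIP replicate 1 (toward eIF4E1b), and 1 without eIF4E1c RIP replicate 1 (toward eIF4E1c). The called ones are COX5B (ENSDARG00000015978), UQCRB and NDUFB9. For import factors and inner membrane carriers, 0 of 70 tested members were called toward eIF4E1b (0%, with 7 at an unadjusted p under 0.05 and 1 by edgeR at 0.05) and 6 toward eIF4E1c (8.57%), with a median log2 fold change of -0.34. Import and carrier counts became 1 without eIF4E1b RIP replicate 1 and 1 without eIF4E1c RIP replicate 2 (toward eIF4E1b), and 1 without eIF4E1b RIP replicate 1 or 2, 2 without eIF4E1b RIP replicate 3 and 1 without eIF4E1c RIP replicate 1 (toward eIF4E1c). SLC25A5 (ENSDARG00000092553), an exchanger of ADP and ATP, had 981, 1525 and 1123 normalized counts in eIF4E1b RIP, against 5337 and 7170.3 in eIF4E1c RIP (log2 fold change -2.37 ± 0.40 (SE), adjusted p = 5.24e-07). TOMM40 (ENSDARG00000092112), the channel of the outer membrane, had 307, 389.8 and 319 normalized counts in eIF4E1b RIP, against 1078 and 871 in eIF4E1c RIP (log2 fold change -1.52 ± 0.40 (SE), adjusted p = 0.00226). SLC25A37, SLC25A17, slc25a40 and SLC25A10 (ENSDARG00000025074), all carriers, were called as well. The DESeq2 call was lost in the case of TOMM40 without eIF4E1b RIP replicate 1, 2 or 3 or eIF4E1c RIP replicate 1 (adjusted p = 0.024, 0.0256, 0.0425 and 0.0172).

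**Figure D3:**
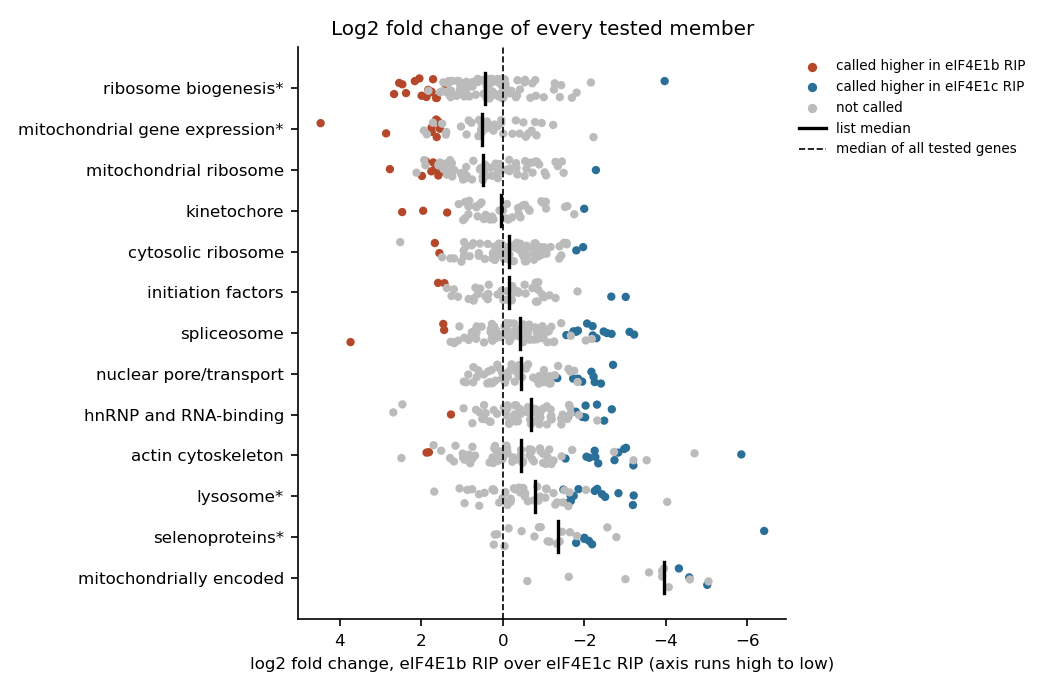
Points are the tested members of 13 lists, placed by their log2 fold change of eIF4E1b RIP over eIF4E1c RIP on an axis that runs from high to low, red and blue where called and grey where not, with a black bar at the median of each list and a dashed line at the median of all tested genes. The medians run from 0.52 for mitochondrial gene expression, through values near 0 for kinetochore genes and cytosolic ribosomal proteins, to -1.36 for selenoproteins and -3.96 for mitochondrially encoded genes. Asterisks mark lists added after the values were seen.

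Regulators of cell division were called in both directions. Early cleavage consists of rapid cycles without gap phases, which run on maternal cyclins and licensing factors. ska2 (ENSDARG00000114038), a component of the Ska complex at kinetochores, had 49680.3, 63304 and 58275 normalized counts in eIF4E1b RIP, against 8059 and 12569 in eIF4E1c RIP (log2 fold change 2.47 ± 0.39 (SE), adjusted p = 7.12e-08). GMNN (ENSDARG00000035957), geminin, which keeps DNA from being licensed again in the same cycle, had 37537, 35440.4 and 46521 normalized counts in eIF4E1b RIP, against 10247 and 10616 in eIF4E1c RIP (log2 fold change 1.93 ± 0.36 (SE), adjusted p = 8.84e-06). pold3 (ENSDARG00000076169), a subunit of DNA polymerase delta, had 19600.1, 17595 and 21956 normalized counts in eIF4E1b RIP, against 4824 and 3991 in eIF4E1c RIP (log2 fold change 2.16 ± 0.37 (SE), adjusted p = 5.18e-07). In these 3 genes the lowest eIF4E1b library lay above the higher eIF4E1c library. Toward eIF4E1c, CDC6 (ENSDARG00000009942), a loader of the replicative helicase, had 329, 293 and 323 normalized counts in eIF4E1b RIP, against 1376 and 1190 in eIF4E1c RIP (log2 fold change -2.03 ± 0.38 (SE), adjusted p = 9.90e-06). CCNE1 (ENSDARG00000098622), cyclin E1, a driver of S phase, had 461, 513 and 455 normalized counts in eIF4E1b RIP, against 4085 and 1532 in eIF4E1c RIP (log2 fold change -2.56 ± 0.48 (SE), adjusted p = 6.99e-06), and POLE2 (ENSDARG00000100028), a subunit of DNA polymerase epsilon, had 34.2, 37.2 and 36.5 normalized counts in eIF4E1b RIP, against 373 and 221 in eIF4E1c RIP (log2 fold change -3.04 ± 0.52 (SE), adjusted p = 6.72e-07). CCNB2, a mitotic cyclin, mastl, the Greatwall kinase, and CCNG1 were also higher in eIF4E1c RIP, while CDKN1B (ENSDARG00000054271), an inhibitor of cyclin-dependent kinases, was higher in eIF4E1b RIP.

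By list, the counts were as follows. For the cell cycle, 2 of 66 tested members were called toward eIF4E1b (3.03%) and 7 toward eIF4E1c (10.6%), with a median log2 fold change of -0.11. The list was drawn up for cyclins, cyclin-dependent kinases and mitotic kinases, but does not hold ccnp. The highest log2 fold change in it was 2.78, against 3.12 for ccnp, so its count toward eIF4E1b leaves out that cyclin. Cell cycle counts became 1 without eIF4E1b RIP replicate 1, 2 or 3 and 5 without eIF4E1c RIP replicate 2 (toward eIF4E1b), and 4 without eIF4E1b RIP replicate 1, 3 without eIF4E1b RIP replicate 2 and 2 without eIF4E1b RIP replicate 3 (toward eIF4E1c). For DNA replication, 2 of 69 tested members were called toward eIF4E1b (2.9%) and 5 toward eIF4E1c (7.25%), with a median log2 fold change of -0.20. Of the kinetochore genes, 3 of 42 tested members were called toward eIF4E1b (7.14%) and 1 toward eIF4E1c (2.38%), with a median log2 fold change of 0.04, those higher in eIF4E1b RIP being ska2, nuf2 and cenpt. Kinetochore counts became 1 without eIF4E1b RIP replicate 2 or 3 and 1 without eIF4E1c RIP replicate 1 (toward eIF4E1b), and 2 without eIF4E1c RIP replicate 1 or 2 (toward eIF4E1c). Its median turned to -0.05 without eIF4E1c RIP replicate 1. Among ubiquitin ligase subunits, 6 of 97 tested members were called toward eIF4E1b (6.19%) and 1 toward eIF4E1c (1.03%), with a median log2 fold change of -0.04. Ubiquitin ligase counts became 3 without eIF4E1b RIP replicate 2, 2 without eIF4E1b RIP replicate 3 and 10 without eIF4E1c RIP replicate 2 (toward eIF4E1b), and 6 without eIF4E1c RIP replicate 2 (toward eIF4E1c). The median of the list turned to 0.05 without eIF4E1b RIP replicate 1, 0.001 without eIF4E1b RIP replicate 2 and 0.02 without eIF4E1c RIP replicate 1. Of the DNA repair genes, 3 of 102 tested members were called toward eIF4E1b (2.94%) and 4 toward eIF4E1c (3.92%), with a median log2 fold change of -0.05. DNA repair counts became 10 without eIF4E1c RIP replicate 2 (toward eIF4E1b), and 11 without eIF4E1c RIP replicate 2 (toward eIF4E1c). The list median turned to 0.03 without eIF4E1b RIP replicate 1, 0.03 without eIF4E1b RIP replicate 2, 0.04 without eIF4E1c RIP replicate 1 and 0.05 without eIF4E1c RIP replicate 2. POLB, a DNA polymerase of base excision repair, and ogg1, a DNA glycosylase, were among those called toward eIF4E1b. XRCC3 (ENSDARG00000017928), a factor of homologous recombination, had 69.9, 75.4 and 59.7 normalized counts in eIF4E1b RIP, against 595 and 298 in eIF4E1c RIP (log2 fold change -2.70 ± 0.50 (SE), adjusted p = 5.72e-06).

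For the ring complexes that hold and fold chromosomes, cohesin and condensin, 1 of 32 tested members were called toward eIF4E1b (3.12%) and 6 toward eIF4E1c (18.8%), with a median log2 fold change of -0.46. Cohesin and condensin counts became 2 without eIF4E1c RIP replicate 1 and 3 without eIF4E1c RIP replicate 2 (toward eIF4E1b), and 2 without eIF4E1b RIP replicate 1 or 2 and 3 without eIF4E1c RIP replicate 1 (toward eIF4E1c). The core of cohesin was on the eIF4E1c side. rad21a (ENSDARG00000006092), the kleisin of cohesin, had 148, 183 and 117 normalized counts in eIF4E1b RIP, against 2089 and 705 in eIF4E1c RIP (log2 fold change -3.23 ± 0.52 (SE), adjusted p = 1.58e-07). SMC3 (ENSDARG00000019000), one of its coiled-coil subunits, had 136, 184 and 132 normalized counts in eIF4E1b RIP, against 836 and 714 in eIF4E1c RIP (log2 fold change -2.36 ± 0.42 (SE), adjusted p = 2.38e-06). SMC1A (ENSDARG00000058203), the partner of SMC3, and SMC4 and NCAPD2 of condensin were called in the same direction, as was pttg1, which encodes securin. The acetyltransferase that acts on SMC3 was the exception. ESCO2 (ENSDARG00000014685) had 8332, 6747 and 10124 normalized counts in eIF4E1b RIP, against 2060.5 and 1770.3 in eIF4E1c RIP (log2 fold change 2.13 ± 0.38 (SE), adjusted p = 2.75e-06).

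Chromatin regulators were called more often toward eIF4E1c, and their share exceeded the background only slightly. In that list, 6 of 236 tested members were called toward eIF4E1b (2.54%) and 14 toward eIF4E1c (5.93%), with a median log2 fold change of -0.26. Chromatin regulator counts became 2 without eIF4E1b RIP replicate 3, 11 without eIF4E1c RIP replicate 1 and 14 without eIF4E1c RIP replicate 2 (toward eIF4E1b), and 8 without eIF4E1b RIP replicate 1, 6 without eIF4E1b RIP replicate 2, 5 without eIF4E1b RIP replicate 3, 7 without eIF4E1c RIP replicate 1 and 34 without eIF4E1c RIP replicate 2 (toward eIF4E1c). Its median turned to 0.09 without eIF4E1c RIP replicate 1. PRMT1, an arginine methyltransferase, SMARCE1 and SMARCC1 of the SWI/SNF remodeler, MTA2 and MBD3 of NuRD, and KMT2D, an H3K4 methyltransferase, were higher in eIF4E1c RIP. ing5b, hmgn1a, ASXL2 and KDM2B (ENSDARG00000036593) were higher in eIF4E1b RIP. The duplicate genes for the H4K20 methyltransferase went in opposite directions. kmt5ab (ENSDARG00000104114) had 11277, 10564 and 9527 normalized counts in eIF4E1b RIP, against 3528 and 4664 in eIF4E1c RIP (log2 fold change 1.35 ± 0.37 (SE), adjusted p = 0.0037), whereas kmt5aa (ENSDARG00000105231) had 948, 942 and 616 normalized counts in eIF4E1b RIP, against 4328 and 3578 in eIF4E1c RIP (log2 fold change -2.24 ± 0.40 (SE), adjusted p = 2.30e-06). For histone chaperones and histone mRNA processing, 1 of 26 tested members were called toward eIF4E1b (3.85%) and 1 toward eIF4E1c (3.85%), with a median log2 fold change of 0.17. Histone chaperone counts became 2 without eIF4E1b RIP replicate 1, 0 without eIF4E1b RIP replicate 2 or 3 and 2 without eIF4E1c RIP replicate 1 or 2 (toward eIF4E1b), and 3 without eIF4E1c RIP replicate 2 (toward eIF4E1c). The median of the list turned to -0.09 without eIF4E1c RIP replicate 2. Lost with DESeq2 was the call of kmt5ab without eIF4E1b RIP replicate 1, 2 or 3 or eIF4E1c RIP replicate 1 (adjusted p = 0.0243, 0.0551, 0.0285 and 0.0291).

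In the NF-kappa-B pathway, an added list, 5 of 37 tested members were called toward eIF4E1b (13.5%) and 0 toward eIF4E1c (0%, with 3 at an unadjusted p under 0.05 and 0 by edgeR at 0.05), with a median log2 fold change of 0.38. NF-kappa-B counts became 3 without eIF4E1b RIP replicate 1 or 3 and 2 without eIF4E1b RIP replicate 2 (toward eIF4E1b), and 2 without eIF4E1c RIP replicate 2 (toward eIF4E1c). ikbkg (ENSDARG00000017037), the regulatory subunit of the IKK complex, had 5666, 6799 and 6585 normalized counts in eIF4E1b RIP, against 2197 and 1727 in eIF4E1c RIP (log2 fold change 1.69 ± 0.37 (SE), adjusted p = 0.000156). NKIRAS1 (ENSDARG00000099527), a small GTPase that binds inhibitors of NF-kappa-B, had 3505, 4064 and 2272 normalized counts in eIF4E1b RIP, against 466 and 825 in eIF4E1c RIP (log2 fold change 2.34 ± 0.45 (SE), adjusted p = 1.18e-05), and IRAK4, a kinase of Toll-like receptor signalling, and NFKBIE, an inhibitor of NF-kappa-B, were also called. NFKBIZ had 91.7, 79.7 and 25 normalized counts in eIF4E1b RIP, against 0 and 0 in eIF4E1c RIP. Against a limit of 3 counts per library it was at least 16-fold higher in eIF4E1b RIP, and its input ratio was 2.57. The DESeq2 call was lost in the case of ikbkg without eIF4E1b RIP replicate 2 or 3 (adjusted p = 0.0136 and 0.00748).

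**Figure D4:**
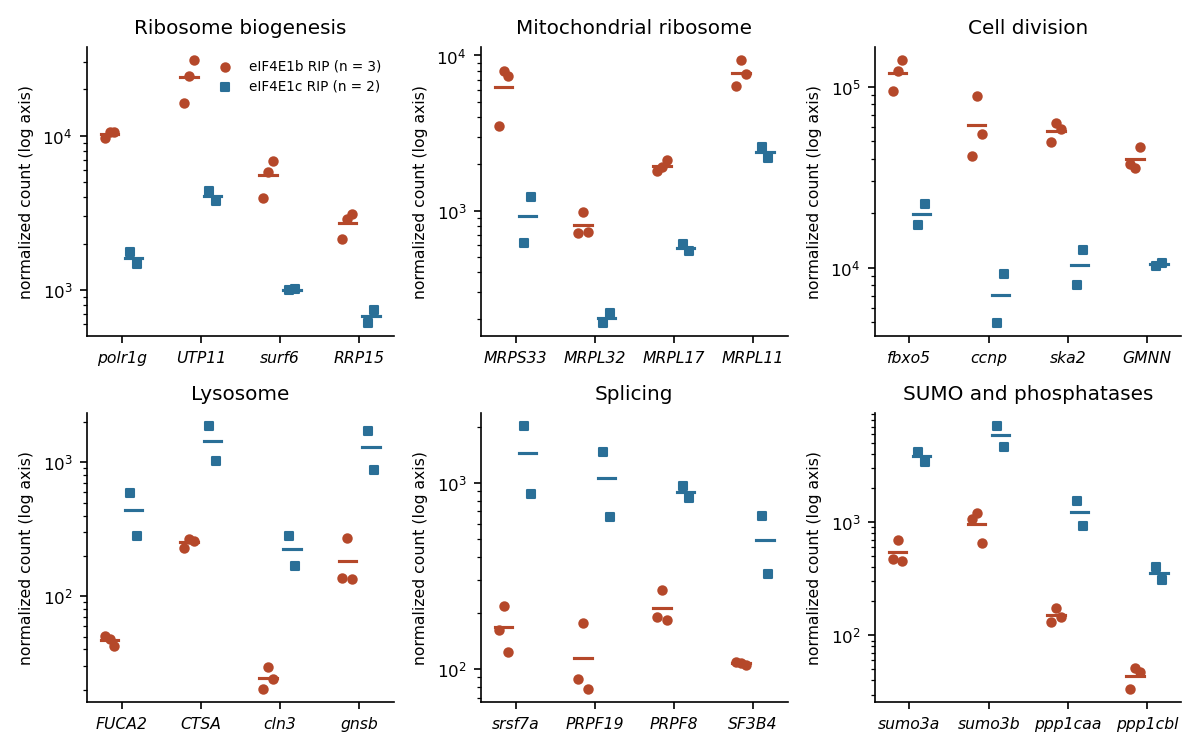
Normalized counts per library (log axis) for 24 called genes of 6 functional groups, with red circles for the 3 eIF4E1b RIP libraries, blue squares for the 2 eIF4E1c RIP libraries and bars at the group means. In the upper panels all red circles lie above both blue squares, and in the lower panels all lie below them.

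Called transcripts of splicing factors were mostly on the eIF4E1c side. Of the spliceosome genes, 3 of 96 tested members were called toward eIF4E1b (3.12%) and 13 toward eIF4E1c (13.5%), with a median log2 fold change of -0.42. Spliceosome counts became 0 without eIF4E1b RIP replicate 1, 2 or 3 and 5 without eIF4E1c RIP replicate 1 (toward eIF4E1b), and 6 without eIF4E1b RIP replicate 2, 7 without eIF4E1b RIP replicate 3 and 6 without eIF4E1c RIP replicate 1 (toward eIF4E1c). They include SR proteins, which mark exons (srsf7a, SRSF9, SRSF3 as ENSDARG00000059360 and both SRSF1 genes, ENSDARG00000057691 and ENSDARG00000017843), and core subunits of the particle. srsf7a (ENSDARG00000035325) had 161, 217 and 122.98 normalized counts in eIF4E1b RIP, against 2013 and 872 in eIF4E1c RIP (log2 fold change -3.11 ± 0.50 (SE), adjusted p = 9.00e-08). PRPF19 (ENSDARG00000015239), a ubiquitin ligase of the spliceosome, had 88.5, 175 and 77.5 normalized counts in eIF4E1b RIP, against 1469 and 655 in eIF4E1c RIP (log2 fold change -3.22 ± 0.54 (SE), adjusted p = 3.38e-07). In both genes the eIF4E1c libraries lay above every eIF4E1b library. PRPF8 (ENSDARG00000026180), the scaffold of its catalytic centre, had 190.3, 263 and 184 normalized counts in eIF4E1b RIP, against 954 and 828 in eIF4E1c RIP (log2 fold change -2.07 ± 0.42 (SE), adjusted p = 3.67e-05), and SF3B4 (ENSDARG00000018574), a protein of the U2 particle, had 109, 107 and 104 normalized counts in eIF4E1b RIP, against 661 and 324 in eIF4E1c RIP (log2 fold change -2.20 ± 0.48 (SE), adjusted p = 0.000178). Higher in eIF4E1b RIP were srrm4, snrnp48 and RBM5. Lost with DESeq2 was the call of SF3B4 without eIF4E1b RIP replicate 2 or 3 or eIF4E1c RIP replicate 1 (adjusted p = 0.00827, 0.00695 and 0.015).

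Among hnRNPs and related RNA-binding proteins, 1 of 71 tested members were called toward eIF4E1b (1.41%) and 8 toward eIF4E1c (11.3%), with a median log2 fold change of -0.69. hnRNP counts became 0 without eIF4E1b RIP replicate 1, 2 or 3 and 0 without eIF4E1c RIP replicate 2 (toward eIF4E1b), and 5 without eIF4E1b RIP replicate 2 (toward eIF4E1c). hnrnpa0l (ENSDARG00000036161) had 1602, 1888 and 1536 normalized counts in eIF4E1b RIP, against 7234 and 6454 in eIF4E1c RIP (log2 fold change -2.03 ± 0.37 (SE), adjusted p = 2.74e-06). ILF2 (ENSDARG00000014591), a double-stranded RNA binding factor, had 254, 243 and 199 normalized counts in eIF4E1b RIP, against 1466 and 837 in eIF4E1c RIP (log2 fold change -2.31 ± 0.44 (SE), adjusted p = 8.76e-06). hnrnpc, hnrnpl2, HNRNPK (ENSDARG00000018914), HNRNPAB (ENSDARG00000007960), tia1 and CELF1 were called alike. SYNCRIP was the single member higher in eIF4E1b RIP and one of its most abundant transcripts. SYNCRIP (ENSDARG00000040184) had 63720, 61123 and 60771 normalized counts in eIF4E1b RIP, against 28263 and 23015 in eIF4E1c RIP (log2 fold change 1.27 ± 0.36 (SE), adjusted p = 0.00482). The DESeq2 call was lost in the case of SYNCRIP without eIF4E1b RIP replicate 1, 2 or 3 or eIF4E1c RIP replicate 2 (adjusted p = 0.0256, 0.063, 0.0467 and 0.0152).

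No gene for the nuclear pore and nuclear transport was called toward eIF4E1b by DESeq2 (2 at an unadjusted p under 0.05 and 0 by edgeR at 0.05), and 9 of 64 tested members (14.1%) were called toward eIF4E1c, with a median log2 fold change of -0.44 for the list. Nuclear transport counts became 1 without eIF4E1c RIP replicate 2 (toward eIF4E1b), and 4 without eIF4E1b RIP replicate 2, 3 without eIF4E1b RIP replicate 3 and 4 without eIF4E1c RIP replicate 1 (toward eIF4E1c). NUP98 (ENSDARG00000074955), a pore component, had 189.5, 140.3 and 99.8 normalized counts in eIF4E1b RIP, against 1293 and 578 in eIF4E1c RIP (log2 fold change -2.70 ± 0.51 (SE), adjusted p = 8.13e-06). RANBP2 (ENSDARG00000093125), the large protein of the cytoplasmic filaments, had 472, 663 and 394 normalized counts in eIF4E1b RIP, against 3954 and 1461 in eIF4E1c RIP (log2 fold change -2.41 ± 0.50 (SE), adjusted p = 7.18e-05). nup153, nup54, NUP35, NDC1 and TPR (ENSDARG00000016630) of the pore, RCC1, the exchange factor of Ran, and tnpo2a, an import receptor, completed the called set. In the added list of RNA polymerase II, Mediator and Integrator, 0 of 75 tested members were called toward eIF4E1b (0%, with 5 at an unadjusted p under 0.05 and 0 by edgeR at 0.05) and 9 toward eIF4E1c (12%), with a median log2 fold change of -0.30. Polymerase II and Mediator counts became 1 without eIF4E1c RIP replicate 2 (toward eIF4E1b), and 5 without eIF4E1b RIP replicate 3 (toward eIF4E1c). The list median turned to 0.03 without eIF4E1c RIP replicate 2. POLR2A (ENSDARG00000099966), the largest subunit of RNA polymerase II, had 219.8, 286 and 159.5 normalized counts in eIF4E1b RIP, against 937 and 898 in eIF4E1c RIP (log2 fold change -2.05 ± 0.43 (SE), adjusted p = 9.57e-05). POLR2D (ENSDARG00000076509) had 14.8, 47.6 and 51.7 normalized counts in eIF4E1b RIP, against 527 and 360.4 in eIF4E1c RIP (log2 fold change -3.55 ± 0.59 (SE), adjusted p = 3.55e-07). DEAD-box and related helicases had 1 of 50 tested members called toward eIF4E1b (2%), 4 toward eIF4E1c (8%) and a median log2 fold change of -0.11. The called ones toward eIF4E1c were DDX5, DDX46 and both DDX39A genes (ENSDARG00000015111 and ENSDARG00000006225). Helicase counts became 0 without eIF4E1b RIP replicate 1, 2 or 3, 0 without eIF4E1c RIP replicate 1 and 2 without eIF4E1c RIP replicate 2 (toward eIF4E1b), and 2 without eIF4E1b RIP replicate 2 or 3 and 1 without eIF4E1c RIP replicate 1 (toward eIF4E1c). The median turned to 0.46 without eIF4E1c RIP replicate 1. With DESeq2, calls were lost for some libraries left out, those of RANBP2 without eIF4E1c RIP replicate 1 (adjusted p = 0.0102), and of POLR2A without eIF4E1b RIP replicate 3 (0.00703).

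Lysosomal genes were called toward eIF4E1c. In this added list, 0 of 56 tested members were called toward eIF4E1b (0%, with 1 at an unadjusted p under 0.05 and 0 by edgeR at 0.05) and 13 toward eIF4E1c (23.2%), with a median log2 fold change of -0.80. Lysosome counts became 3 without eIF4E1c RIP replicate 2 (toward eIF4E1b), and 6 without eIF4E1b RIP replicate 2 and 7 without eIF4E1b RIP replicate 3 (toward eIF4E1c). CTSA (ENSDARG00000098114), cathepsin A, had 229.9, 269 and 258 normalized counts in eIF4E1b RIP, against 1859 and 1023 in eIF4E1c RIP (log2 fold change -2.51 ± 0.43 (SE), adjusted p = 7.86e-07). FUCA2 (ENSDARG00000044073), a fucosidase, had 50.5, 47.6 and 42.8 normalized counts in eIF4E1b RIP, against 593 and 279.5 in eIF4E1c RIP (log2 fold change -3.21 ± 0.52 (SE), adjusted p = 1.14e-07). Both encode enzymes that degrade glycoproteins or peptides in the organelle. PPT1 (ENSDARG00000039980), another palmitoyl-protein thioesterase, had 539, 564 and 475 normalized counts in eIF4E1b RIP, against 1747 and 1597 in eIF4E1c RIP (log2 fold change -1.67 ± 0.38 (SE), adjusted p = 0.000275), and CTSD (ENSDARG00000057698), the aspartic protease cathepsin D, had 875, 759.7 and 528 normalized counts in eIF4E1b RIP, against 1644 and 2642 in eIF4E1c RIP (log2 fold change -1.57 ± 0.43 (SE), adjusted p = 0.00381). The proteases ctsla, CTSC and TPP1, the hydrolases gnsb and GUSB, the membrane proteins cln3, LAPTM4A and LAPTM4B and the progranulin gene grnb were called alike. Calls that DESeq2 lost were those of PPT1 without eIF4E1b RIP replicate 2 or 3 (adjusted p = 0.0118 and 0.0154), and of CTSD without eIF4E1b RIP replicate 1, 2 or 3 or eIF4E1c RIP replicate 2 (0.00583, 0.0378, 0.0565 and 0.0326).

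Called genes of ER glycosylation were mostly on the eIF4E1c side. Those of vesicle traffic were called in both directions, at shares slightly below the 3.44% and 4.51% of all tested genes. In the added list of oligosaccharyltransferase, ER glycosylation, lipid anchors and ER to Golgi cargo factors, 1 of 76 tested members were called toward eIF4E1b (1.32%) and 10 toward eIF4E1c (13.2%), with a median log2 fold change of -0.59. ER glycosylation counts became 0 without eIF4E1b RIP replicate 2 or 3 (toward eIF4E1b), and 4 without eIF4E1b RIP replicate 2 and 3 without eIF4E1b RIP replicate 3 (toward eIF4E1c). STT3A (ENSDARG00000104953), the catalytic subunit of the oligosaccharyltransferase, had 127, 144 and 109.6 normalized counts in eIF4E1b RIP, against 369 and 429.9 in eIF4E1c RIP (log2 fold change -1.66 ± 0.44 (SE), adjusted p = 0.00269). RPN2, another subunit of that enzyme, had the widest gap in the list, and KRTCAP2 was called in the same direction. RPN2 (ENSDARG00000009724) had 1.55, 1.73 and 14.3 normalized counts in eIF4E1b RIP, against 502 and 119 in eIF4E1c RIP (log2 fold change -5.74 ± 0.88 (SE), adjusted p = 2.20e-08). The ER to Golgi coat and translocon list had 1 of 50 tested members called toward eIF4E1b (2%), 2 toward eIF4E1c (4%) and a median log2 fold change of -0.42, and the wider list of vesicle traffic had 6 of 182 tested members called toward eIF4E1b (3.3%), 7 toward eIF4E1c (3.85%) and a median log2 fold change of -0.0011. ER coat counts became 0 without eIF4E1b RIP replicate 2 or 3 and 0 without eIF4E1c RIP replicate 1 (toward eIF4E1b), and 1 without eIF4E1b RIP replicate 2 or 3 and 4 without eIF4E1c RIP replicate 1 (toward eIF4E1c). Vesicle traffic counts became 2 without eIF4E1b RIP replicate 2 or 3, 3 without eIF4E1c RIP replicate 1 and 15 without eIF4E1c RIP replicate 2 (toward eIF4E1b), and 3 without eIF4E1b RIP replicate 1, 4 without eIF4E1b RIP replicate 2 or 3 and 13 without eIF4E1c RIP replicate 2 (toward eIF4E1c). The median turned to 0.02 without eIF4E1b RIP replicate 1, 0.01 without eIF4E1b RIP replicate 2, 0.0015 without eIF4E1b RIP replicate 3 and 0.25 without eIF4E1c RIP replicate 2. VAMP3 (ENSDARG00000070161), a vesicle SNARE, had 158, 220 and 114 normalized counts in eIF4E1b RIP, against 1312 and 927 in eIF4E1c RIP (log2 fold change -2.77 ± 0.46 (SE), adjusted p = 2.33e-07), whereas vamp2 (ENSDARG00000056877), a SNARE of the same family, had 114, 165 and 89.1 normalized counts in eIF4E1b RIP, against 7.6 and 27 in eIF4E1c RIP (log2 fold change 2.75 ± 0.70 (SE), adjusted p = 0.00155). Among these DESeq2 calls, those lost were the calls of STT3A without eIF4E1b RIP replicate 1, 2 or 3 or eIF4E1c RIP replicate 1 or 2 (adjusted p = 0.0265, 0.0349, 0.0587, 0.00517 and 0.0145), and of vamp2 without eIF4E1b RIP replicate 1, 2 or 3 or eIF4E1c RIP replicate 1 (0.0193, 0.0701, 0.0139 and 0.0115).

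Selenoproteins carry selenocysteine, which is read from a stop codon with the help of an element in the 3′ untranslated region. In this added list, 0 of 24 tested members were called toward eIF4E1b (0%, with 0 at an unadjusted p under 0.05 and 0 by edgeR at 0.05) and 6 toward eIF4E1c (25%), with a median log2 fold change of -1.36. Selenoprotein counts became 3 without eIF4E1b RIP replicate 2 and 2 without eIF4E1b RIP replicate 3 (toward eIF4E1c). selenow1 (ENSDARG00000035136) had 95.5, 118 and 136 normalized counts in eIF4E1b RIP, against 428 and 579 in eIF4E1c RIP (log2 fold change -2.11 ± 0.45 (SE), adjusted p = 9.95e-05). SELENOF (ENSDARG00000099664), a protein of the ER, had 305, 683 and 291 normalized counts in eIF4E1b RIP, against 1981 and 1914 in eIF4E1c RIP (log2 fold change -2.19 ± 0.48 (SE), adjusted p = 0.000191), and TXNRD3 (ENSDARG00000100374), a thioredoxin reductase, had 257, 536 and 237 normalized counts in eIF4E1b RIP, against 1359 and 1383 in eIF4E1c RIP (log2 fold change -1.997 ± 0.48 (SE), adjusted p = 0.000667). selenop, the carrier of selenium in plasma, had 1.55, 0.866 and 0 normalized counts in eIF4E1b RIP, against 124 and 18.8 in eIF4E1c RIP, with an input ratio of -2.78. DESeq2 lost the calls of selenow1 without eIF4E1b RIP replicate 2 (adjusted p = 0.00774), of SELENOF without eIF4E1b RIP replicate 3 (0.00707), and of TXNRD3 without eIF4E1b RIP replicate 1 or 3 (0.00829 and 0.0178).

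Ubiquitin-like modifiers and the enzymes that attach them were called mostly toward eIF4E1c. For the added list of ubiquitin, SUMO and their activating and conjugating enzymes, 2 of 71 tested members were called toward eIF4E1b (2.82%) and 12 toward eIF4E1c (16.9%), with a median log2 fold change of -0.31. SUMO and ubiquitin counts became 1 without eIF4E1b RIP replicate 2 and 0 without eIF4E1b RIP replicate 3 (toward eIF4E1b), and 5 without eIF4E1b RIP replicate 1 or 3, 6 without eIF4E1b RIP replicate 2 and 7 without eIF4E1c RIP replicate 1 (toward eIF4E1c). sumo3a (ENSDARG00000028119), a SUMO gene, had 476, 703 and 452 normalized counts in eIF4E1b RIP, against 4227 and 3447 in eIF4E1c RIP (log2 fold change -2.82 ± 0.40 (SE), adjusted p = 1.95e-09), and its duplicate moved with it. sumo3b (ENSDARG00000035993) had 1064, 1199 and 655 normalized counts in eIF4E1b RIP, against 7086 and 4676 in eIF4E1c RIP (log2 fold change -2.60 ± 0.43 (SE), adjusted p = 3.41e-07). ube2ib (ENSDARG00000007438), a gene for the SUMO conjugating enzyme, had 264, 325 and 279.8 normalized counts in eIF4E1b RIP, against 1494 and 865 in eIF4E1c RIP (log2 fold change -2.02 ± 0.43 (SE), adjusted p = 9.44e-05). Both cdc34 duplicates (cdc34a and cdc34b), UBE2D1, ube2d2l, UBE2A, UBE2M, UBE2K (ENSDARG00000089055) and the polyubiquitin gene ubc were called alike, whereas ube2na and the SUMO protease gene senp3a were higher in eIF4E1b RIP.

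Serine/threonine phosphatase genes, also an added list, had 1 of 70 tested members called toward eIF4E1b (1.43%), 7 toward eIF4E1c (10%) and a median log2 fold change of -0.16. Phosphatase counts became 0 without eIF4E1b RIP replicate 1, 2 or 3, 0 without eIF4E1c RIP replicate 1 and 2 without eIF4E1c RIP replicate 2 (toward eIF4E1b), and 4 without eIF4E1b RIP replicate 1 or 2, 3 without eIF4E1b RIP replicate 3 and 4 without eIF4E1c RIP replicate 1 (toward eIF4E1c). ppp1caa (ENSDARG00000003486), a catalytic subunit of PP1, had 132, 176 and 144 normalized counts in eIF4E1b RIP, against 1545 and 924 in eIF4E1c RIP (log2 fold change -3.03 ± 0.44 (SE), adjusted p = 1.99e-09). ppp1cbl (ENSDARG00000102012), another PP1 catalytic subunit, had 33.4, 51.1 and 47.2 normalized counts in eIF4E1b RIP, against 405 and 309.8 in eIF4E1c RIP (log2 fold change -3.02 ± 0.50 (SE), adjusted p = 1.98e-07). TIPRL and PTPA, regulators of PP2A-type phosphatases, and PPP4C (ENSDARG00000076439) were called in the same direction, and ppp2r5ea in the other. For proteasome subunits, 3 of 53 tested members were called toward eIF4E1b (5.66%) and 1 toward eIF4E1c (1.89%), with a median log2 fold change of 0.21, the members toward eIF4E1b being PSMA4, PSMB1 and PSMD4. Proteasome counts became 0 without eIF4E1b RIP replicate 2, 1 without eIF4E1b RIP replicate 3 and 1 without eIF4E1c RIP replicate 1 (toward eIF4E1b), and 0 without eIF4E1b RIP replicate 2 or 3, 0 without eIF4E1c RIP replicate 1 and 3 without eIF4E1c RIP replicate 2 (toward eIF4E1c). The median turned to -0.02 without eIF4E1c RIP replicate 1.

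Called genes of the cell cortex were mostly on the eIF4E1c side. Of the actin cytoskeleton genes, 2 of 74 tested members were called toward eIF4E1b (2.7%) and 12 toward eIF4E1c (16.2%), with a median log2 fold change of -0.44. Actin counts became 1 without eIF4E1b RIP replicate 2 and 7 without eIF4E1c RIP replicate 2 (toward eIF4E1b), and 6 without eIF4E1b RIP replicate 3 and 7 without eIF4E1c RIP replicate 1 (toward eIF4E1c). myl12.1 (ENSDARG00000099766), a regulatory light chain of non-muscle myosin, had 195, 286 and 279 normalized counts in eIF4E1b RIP, against 3712 and 951 in eIF4E1c RIP (log2 fold change -3.20 ± 0.55 (SE), adjusted p = 9.73e-07). tpm3 (ENSDARG00000005162), a tropomyosin, had 378, 406 and 354 normalized counts in eIF4E1b RIP, against 2463 and 1202 in eIF4E1c RIP (log2 fold change -2.27 ± 0.44 (SE), adjusted p = 1.77e-05). CTTN (ENSDARG00000011777), cortactin, had 424, 376 and 199 normalized counts in eIF4E1b RIP, against 1811 and 1366 in eIF4E1c RIP (log2 fold change -2.25 ± 0.46 (SE), adjusted p = 4.61e-05). The actin genes actb1 and actb2 were called as well, and reads of these near-identical genes may have been split between them. Both transgenes also carry the actb2 5′ untranslated region, so their RNA may add reads to actb2. How many was not tested. CFL1 (ENSDARG00000021124), cofilin, which severs actin filaments, had 42686, 29929 and 32989.6 normalized counts in eIF4E1b RIP, against 8337 and 11709 in eIF4E1c RIP, and was an exception (log2 fold change 1.81 ± 0.39 (SE), adjusted p = 0.000122).

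Cell junction genes showed wide differences in both directions, with 5 of 41 tested members called toward eIF4E1b (12.2%), 7 toward eIF4E1c (17.1%) and a median log2 fold change of -1.05. Junction counts became 3 without eIF4E1b RIP replicate 1 or 2, 2 without eIF4E1b RIP replicate 3 and 3 without eIF4E1c RIP replicate 1 (toward eIF4E1b), and 11 without eIF4E1c RIP replicate 2 (toward eIF4E1c). oclna (ENSDARG00000005108), an occludin of tight junctions, had 245, 239 and 189.8 normalized counts in eIF4E1b RIP, against 1825 and 1215 in eIF4E1c RIP (log2 fold change -2.76 ± 0.41 (SE), adjusted p = 1.18e-08). cldnd (ENSDARG00000006580), a claudin, had 816, 1971 and 2623 normalized counts in eIF4E1b RIP, against 10825 and 16289.8 in eIF4E1c RIP (log2 fold change -2.91 ± 0.51 (SE), adjusted p = 1.53e-06). epcam (ENSDARG00000040534), an epithelial adhesion molecule, had 917, 941 and 1718 normalized counts in eIF4E1b RIP, against 4163 and 8225 in eIF4E1c RIP (log2 fold change -2.38 ± 0.47 (SE), adjusted p = 3.08e-05). cldn7b, cldnd1a and f11r.1 were among those called alike, while cdh18a, CDH13, CTNND2, CLDN11 (ENSDARG00000030723) and DSP (ENSDARG00000076673) were higher in eIF4E1b RIP.

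Wnt pathway and germ plasm transcripts were called mostly toward eIF4E1c. Of the Wnt pathway genes, 1 of 48 tested members were called toward eIF4E1b (2.08%) and 6 toward eIF4E1c (12.5%), with a median log2 fold change of -0.29. Wnt counts became 0 without eIF4E1b RIP replicate 1 or 2 and 2 without eIF4E1c RIP replicate 2 (toward eIF4E1b), and 1 without eIF4E1b RIP replicate 2 or 3 and 1 without eIF4E1c RIP replicate 1 (toward eIF4E1c). ctnnb2 (ENSDARG00000023472), a beta-catenin gene needed maternally for the dorsal axis in zebrafish, had 936, 884 and 609 normalized counts in eIF4E1b RIP, against 3933 and 2158 in eIF4E1c RIP (log2 fold change -1.91 ± 0.44 (SE), adjusted p = 0.000358). hwa (ENSDARG00000094542), huluwa, a maternal determinant of the dorsal organizer in zebrafish, had 35, 63.2 and 49.9 normalized counts in eIF4E1b RIP, against 487 and 103 in eIF4E1c RIP (log2 fold change -2.57 ± 0.67 (SE), adjusted p = 0.00213). LEF1 and TCF7L1, DNA-binding partners of beta-catenin, and WLS and PORCN (ENSDARG00000052455), which Wnt secretion needs, were called in the same direction. Of the germ plasm and piRNA genes, 0 of 27 tested members were called toward eIF4E1b (0%, with 0 at an unadjusted p under 0.05 and 0 by edgeR at 0.05) and 3 toward eIF4E1c (11.1%), with a median log2 fold change of -0.12. Germ plasm counts became 1 without eIF4E1b RIP replicate 1, 2 or 3 and 0 without eIF4E1c RIP replicate 1 (toward eIF4E1c). The median turned to 0.16 without eIF4E1c RIP replicate 1. DAZL (ENSDARG00000036214), a germ cell RNA-binding protein, had 330.1, 355 and 268 normalized counts in eIF4E1b RIP, against 3028 and 746 in eIF4E1c RIP (log2 fold change -2.57 ± 0.56 (SE), adjusted p = 0.000131). buc (ENSDARG00000096095), Bucky ball, which organizes germ plasm, had 12005, 14389 and 12115 normalized counts in eIF4E1b RIP, against 14087 and 13903 in eIF4E1c RIP, with overlapping groups (log2 fold change -0.12 ± 0.36 (SE), adjusted p = 0.855). Leaving out 1 library, DESeq2 lost the calls of ctnnb2 without eIF4E1b RIP replicate 2 or 3 or eIF4E1c RIP replicate 1 (adjusted p = 0.00698, 0.0123 and 0.0128), of hwa without eIF4E1b RIP replicate 1, 2 or 3 or eIF4E1c RIP replicate 1 (0.02, 0.0104, 0.0197 and 0.297), and of DAZL without eIF4E1c RIP replicate 1 (0.0373).

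Initiation factor and mRNA storage genes were called in both directions, the former at shares near the 3.44% and 4.51% of all tested genes. The called genes named below whose proteins bind eIF4E, EIF4G3 and EIF4EBP3, were on the eIF4E1c side. For initiation factors, 2 of 46 tested members were called toward eIF4E1b (4.35%) and 2 toward eIF4E1c (4.35%), with a median log2 fold change of -0.16. Initiation factor counts became 1 without eIF4E1b RIP replicate 1 and 0 without eIF4E1b RIP replicate 2 or 3 (toward eIF4E1b). Its median turned to 0.0036 without eIF4E1b RIP replicate 1. Both genes called toward eIF4E1c encode eIF4G3, a scaffold that eIF4E binds. The EIF4G3 gene ENSDARG00000074331 (the first of the pair) had 197, 101 and 98.9 normalized counts in eIF4E1b RIP, against 1336 and 810 in eIF4E1c RIP (log2 fold change -3.01 ± 0.49 (SE), adjusted p = 1.90e-07). The EIF4G3 gene ENSDARG00000077215 (the second of the pair) had 192, 78 and 138 normalized counts in eIF4E1b RIP, against 1063 and 660.4 in eIF4E1c RIP (log2 fold change -2.66 ± 0.51 (SE), adjusted p = 1.07e-05). EIF4G1, the main scaffold, was not called, with a log2 fold change of -0.87. In the list of mRNA storage factors and eIF4E partners, 3 of 46 tested members were called toward eIF4E1b (6.52%) and 4 toward eIF4E1c (8.7%), with a median log2 fold change of -0.26. mRNA storage counts became 1 without eIF4E1b RIP replicate 2, 0 without eIF4E1b RIP replicate 3 and 5 without eIF4E1c RIP replicate 2 (toward eIF4E1b), and 2 without eIF4E1b RIP replicate 1, 2 or 3, 2 without eIF4E1c RIP replicate 1 and 7 without eIF4E1c RIP replicate 2 (toward eIF4E1c). EIF4EBP3 (ENSDARG00000041607), a 4E-binding protein, had 207, 255 and 172 normalized counts in eIF4E1b RIP, against 1777 and 909 in eIF4E1c RIP (log2 fold change -2.67 ± 0.46 (SE), adjusted p = 7.66e-07). pabpc1a (ENSDARG00000017219), a cytoplasmic poly(A)-binding protein, had 2054, 3593 and 3872 normalized counts in eIF4E1b RIP, against 18807 and 9721 in eIF4E1c RIP (log2 fold change -2.17 ± 0.46 (SE), adjusted p = 0.000101), and YBX1 (ENSDARG00000004757), a cold-shock domain protein that packages maternal mRNA, had 2319, 2024 and 1582 normalized counts in eIF4E1b RIP, against 4634 and 5569 in eIF4E1c RIP (log2 fold change -1.37 ± 0.39 (SE), adjusted p = 0.00482). Both MSI2 genes (ENSDARG00000033901 and ENSDARG00000032614), which encode Musashi proteins, were higher in eIF4E1b RIP. The remaining call of this list toward eIF4E1b was the bait gene EIF4E1B, whose coding sequence the transgene carries. Of the 3 calls it was the 1 with an input ratio of at least 1 on the log2 scale. CNOT8 (ENSDARG00000020043), a catalytic subunit of the CCR4-NOT complex, had 175, 168 and 148 normalized counts in eIF4E1b RIP, against 1114 and 893 in eIF4E1c RIP (log2 fold change -2.62 ± 0.40 (SE), adjusted p = 2.95e-08), and its paralog CNOT7 was called in the same direction. The whole list of mRNA decay had 2 of 59 tested members called toward eIF4E1b (3.39%), 2 toward eIF4E1c (3.39%) and a median log2 fold change of -0.04. mRNA decay counts became 0 without eIF4E1b RIP replicate 2 or 3 and 4 without eIF4E1c RIP replicate 1 (toward eIF4E1b), and 1 without eIF4E1b RIP replicate 2 or 3, 1 without eIF4E1c RIP replicate 1 and 5 without eIF4E1c RIP replicate 2 (toward eIF4E1c). The list median turned to 0.07 without eIF4E1c RIP replicate 1 and 0.13 without eIF4E1c RIP replicate 2. With DESeq2, calls were lost for some libraries left out, those of pabpc1a without eIF4E1c RIP replicate 1 (adjusted p = 0.00613), of YBX1 without eIF4E1b RIP replicate 1, 2 or 3 or eIF4E1c RIP replicate 2 (0.00864, 0.0549, 0.0728 and 0.0164), and of CNOT7 without eIF4E1b RIP replicate 2 or 3 or eIF4E1c RIP replicate 1 (0.0394, 0.0453 and 0.234).

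RNAs that carry no cap were read as a separate group. Messenger RNAs of the mitochondrial genome are made inside the organelle and are not capped. Their 13 genes together took 0.0157%, 0.0972% and 0.0145% of the counts in eIF4E1b RIP, against 1.20% and 0.251% in eIF4E1c RIP, with Wilson 95% intervals that reached at most 0.0164%, 0.0989% and 0.0152% in eIF4E1b RIP and were no lower than 1.19% and 0.248% in eIF4E1c RIP. Intervals here cover counting error only, because copies made in amplification cannot be told from separate molecules. Both eIF4E1c libraries thus held a larger share than any eIF4E1b library. In the inputs the share was 0.0285% to 0.134% for eIF4E1b and 0.0225% to 0.0685% for eIF4E1c. The median log2 fold change of the 13 genes was -3.96. Of them 3 (23.1%, against 4.51% of all tested genes) were called, MT-ND4, MT-ND5 and MT-ATP6. In 11 of 13 all eIF4E1c libraries lay above all eIF4E1b libraries, against 21.6% of all tested genes. Mitochondrially encoded counts became 7 without eIF4E1b RIP replicate 1, 10 without eIF4E1b RIP replicate 2, 6 without eIF4E1b RIP replicate 3, 0 without eIF4E1c RIP replicate 1 and 5 without eIF4E1c RIP replicate 2 (toward eIF4E1c). MT-ND4 (ENSDARG00000063917) had 83.1, 327 and 48.1 normalized counts in eIF4E1b RIP, against 6123 and 1142 in eIF4E1c RIP (log2 fold change -4.57 ± 0.76 (SE), adjusted p = 2.93e-07). MT-CO1 (ENSDARG00000063905) had 446, 2909.8 and 381 normalized counts in eIF4E1b RIP, against 53772 and 6235 in eIF4E1c RIP, with the 2 eIF4E1c libraries far apart and no call (log2 fold change -4.59 ± 1.51 (SE), adjusted p = 0.0181).

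Further entries were read beside them. A ribosomal RNA gene (ENSDARG00000081218) had 59.8, 110 and 41.9 normalized counts in eIF4E1b RIP, against 762 and 796 in eIF4E1c RIP (log2 fold change -3.47 ± 0.51 (SE), adjusted p = 4.90e-09, input ratio -1.03). The most abundant entry of eIF4E1c RIP was ENSDARG00000080337, for which no name was found and whose kind is therefore unknown. It took 0.456%, 1.19% and 0.0766% of the counts in eIF4E1b RIP, against 8.65% and 2.96% in eIF4E1c RIP, and between 0.0308% and 0.0993% in the 6 inputs. With a log2 fold change of -3.46 ± 1.27 (SE), adjusted p = 0.0391 it was not called. RIP and input libraries were made with different kits, so their shares are not directly comparable. How far these RNAs, and the depth of the first eIF4E1c RIP library, move with the groups of mRNAs described above was not tested. Of the 637 genes called toward eIF4E1c, 497 (78.0%) had a higher normalized count in the first than in the second eIF4E1c library, against 49.3% of all tested genes. Lost with DESeq2 was the call of MT-ND4 without eIF4E1c RIP replicate 1 (adjusted p = 0.168).

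**Figure D5:**
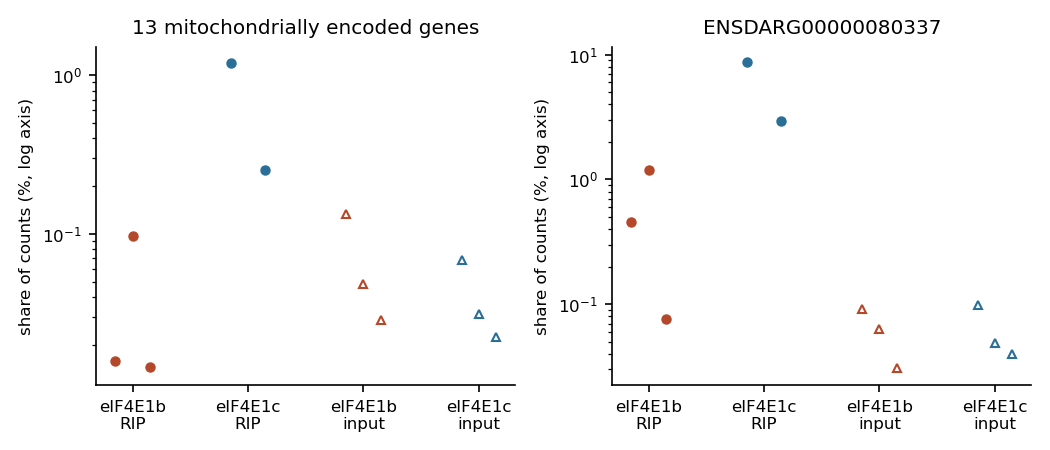
Share of each library's counts (%, log axis) taken by the 13 mitochondrially encoded genes (left) and by ENSDARG00000080337 (right), with filled circles for RIP and open triangles for input libraries, red for eIF4E1b and blue for eIF4E1c; Wilson 95% intervals are smaller than the symbols. In both panels the 2 eIF4E1c RIP libraries lie above the 3 eIF4E1b RIP libraries.

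Histone genes were called mostly toward eIF4E1b, with 10 of 32 tested members called toward eIF4E1b (31.2%), 1 toward eIF4E1c (3.12%) and a median log2 fold change of 1.37 among those named as histones. The sum over these 33 members named as histones alone, which is set by those with the highest counts, went the other way. It was 19162.8, 27087 and 34792.5 normalized counts in eIF4E1b RIP, against 35868.3 and 41427.8 in eIF4E1c RIP. Histone counts became 6 without eIF4E1b RIP replicate 1, 1 without eIF4E1b RIP replicate 2 and 3 without eIF4E1b RIP replicate 3 (toward eIF4E1b), and 0 without eIF4E1b RIP replicate 1, 2 or 3, 0 without eIF4E1c RIP replicate 1 and 2 without eIF4E1c RIP replicate 2 (toward eIF4E1c). A further set of 67 genes, added after the values were seen, carries names from 4 genomic clones (si:dkey-108k21, si:ch211-113a14, si:dkey-261m9 and si:dkey-23a13). These names do not say what the genes encode, so they cannot tell whether histone genes are among the 67. The paper marked histone genes by protein domain families. The set includes si:dkey-108k21.23, one of the 15 genes with the smallest adjusted p toward eIF4E1b. Of the 57 tested members of the set, 20 were called toward eIF4E1b (35.1%, against 3.44% of all tested genes). Toward eIF4E1c 0 were called (0 at an unadjusted p under 0.05 and 0 by edgeR at 0.05). In 53 of the 57 all eIF4E1b libraries lay above both eIF4E1c libraries, against 23.2% of all tested genes. The median log2 fold change of the set was 1.99. Summed over its 67 genes, the set had 8562, 13042 and 13407 normalized counts in eIF4E1b RIP, against 3414 and 2292 in eIF4E1c RIP. The sum given above for genes named as histones does not hold these genes. Genes in such clusters can be near-identical, reads may then be shared among them, and the counts are uncertain. Clone set counts became 13 without eIF4E1b RIP replicate 1, 5 without eIF4E1b RIP replicate 2, 4 without eIF4E1b RIP replicate 3 and 13 without eIF4E1c RIP replicate 2 (toward eIF4E1b).

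The remaining lists were counted in the same way, against the 3.44% and 4.51% of all tested genes called toward eIF4E1b and eIF4E1c. Chaperones had 1 of 81 tested members called toward eIF4E1b (1.23%) and 4 toward eIF4E1c (4.94%). Chaperone counts became 3 without eIF4E1c RIP replicate 2 (toward eIF4E1b). The list median turned to 0.20 without eIF4E1c RIP replicate 2, against -0.13 with all libraries. Chaperones help other proteins to fold. Motor proteins and tubulins had 1 of 77 tested members called toward eIF4E1b (1.3%) and 5 toward eIF4E1c (6.49%). Motor counts became 0 without eIF4E1b RIP replicate 1, 2 or 3 and 0 without eIF4E1c RIP replicate 1 (toward eIF4E1b), and 3 without eIF4E1b RIP replicate 2, 3 without eIF4E1c RIP replicate 1 and 11 without eIF4E1c RIP replicate 2 (toward eIF4E1c). The median turned to 0.10 without eIF4E1c RIP replicate 1, against -0.25 with all libraries. Motors carry cargo and chromosomes along microtubules. Centrosome and cilium proteins (added) had 5 of 80 tested members called toward eIF4E1b (6.25%) and 10 toward eIF4E1c (12.5%). Among them were pcnt, CEP120 and CEP97 toward eIF4E1c and HAUS1, CSPP1 and cfap53 toward eIF4E1b. Centrosome counts became 3 without eIF4E1b RIP replicate 1, 1 without eIF4E1b RIP replicate 2 or 3 and 9 without eIF4E1c RIP replicate 2 (toward eIF4E1b), and 6 without eIF4E1b RIP replicate 2, 5 without eIF4E1b RIP replicate 3 and 2 without eIF4E1c RIP replicate 1 (toward eIF4E1c). Its median turned to 0.04 without eIF4E1b RIP replicate 2 and 0.07 without eIF4E1c RIP replicate 2, against -0.04 with all libraries. Solute carriers had 3 of 147 tested members called toward eIF4E1b (2.04%) and 8 toward eIF4E1c (5.44%). Solute carrier counts became 1 without eIF4E1b RIP replicate 1, 0 without eIF4E1b RIP replicate 2 or 3, 1 without eIF4E1c RIP replicate 1 and 10 without eIF4E1c RIP replicate 2 (toward eIF4E1b), and 5 without eIF4E1b RIP replicate 2, 2 without eIF4E1b RIP replicate 3 and 14 without eIF4E1c RIP replicate 2 (toward eIF4E1c). Tetraspanins (added) had 2 of 22 tested members called toward eIF4E1b (9.09%) and 5 toward eIF4E1c (22.7%). Tetraspanin counts became 2 without eIF4E1b RIP replicate 2 or 3 and 2 without eIF4E1c RIP replicate 1 (toward eIF4E1c). The list median turned to 0.33 without eIF4E1c RIP replicate 2, against -0.25 with all libraries. Glycolysis and the citric acid cycle had 1 of 46 tested members called toward eIF4E1b (2.17%) and 2 toward eIF4E1c (4.35%). Zinc finger genes had 4 of 230 tested members called toward eIF4E1b (1.74%) and 2 toward eIF4E1c (0.87%). TGF-beta signalling had 1 of 43 tested members called toward eIF4E1b (2.33%) and 1 toward eIF4E1c (2.33%). MAP kinase signalling had 2 of 60 tested members called toward eIF4E1b (3.33%) and 1 toward eIF4E1c (1.67%). Elongation factors and tRNA synthetases had 1 of 45 tested members called toward eIF4E1b (2.22%) and 1 toward eIF4E1c (2.22%). For mRNA export and 3′ end formation, 0 of 39 tested members were called toward eIF4E1b (0%) and 1 toward eIF4E1c (2.56%). For that 0, 7 had an unadjusted p under 0.05 and 0 were called by edgeR at 0.05. Glycolysis counts became 0 without eIF4E1b RIP replicate 1, 2 or 3 and 2 without eIF4E1c RIP replicate 1 (toward eIF4E1b), and 6 without eIF4E1c RIP replicate 2 (toward eIF4E1c). Zinc finger counts became 0 without eIF4E1b RIP replicate 1, 1 without eIF4E1b RIP replicate 2 or 3, 10 without eIF4E1c RIP replicate 1 and 19 without eIF4E1c RIP replicate 2 (toward eIF4E1b), and 1 without eIF4E1b RIP replicate 3, 1 without eIF4E1c RIP replicate 1 and 10 without eIF4E1c RIP replicate 2 (toward eIF4E1c). Both counts of zinc finger genes were thus highest without the second eIF4E1c RIP library. TGF-beta counts became 0 without eIF4E1b RIP replicate 3 and 3 without eIF4E1c RIP replicate 2 (toward eIF4E1b), and 3 without eIF4E1c RIP replicate 2 (toward eIF4E1c). The median of the list turned to -0.09 without eIF4E1b RIP replicate 1, against 0.14 with all libraries. MAP kinase counts became 0 without eIF4E1b RIP replicate 1, 2 or 3 and 1 without eIF4E1c RIP replicate 1 (toward eIF4E1b), and 0 without eIF4E1b RIP replicate 1, 2 or 3, 0 without eIF4E1c RIP replicate 1 and 6 without eIF4E1c RIP replicate 2 (toward eIF4E1c). The list median turned to 0.04 without eIF4E1c RIP replicate 1, against -0.23 with all libraries. Elongation factors and tRNA synthetases serve translation after initiation. Elongation factor and synthetase counts became 0 without eIF4E1b RIP replicate 1 and 6 without eIF4E1c RIP replicate 2 (toward eIF4E1b), and 0 without eIF4E1b RIP replicate 1, 2 or 3, 0 without eIF4E1c RIP replicate 1 and 4 without eIF4E1c RIP replicate 2 (toward eIF4E1c). The median turned to 0.01 without eIF4E1b RIP replicate 1, 0.04 without eIF4E1b RIP replicate 2 and 0.12 without eIF4E1c RIP replicate 1, against -0.05 with all libraries. Export counts became 2 without eIF4E1c RIP replicate 2 (toward eIF4E1b), and 0 without eIF4E1b RIP replicate 2 or 3, 0 without eIF4E1c RIP replicate 1 and 3 without eIF4E1c RIP replicate 2 (toward eIF4E1c). Its median turned to -0.05 without eIF4E1c RIP replicate 2, against 0.05 with all libraries. Of 28 tested factors linked to activation of the zygotic genome, 0 were called by DESeq2 in either direction (2 and 6 toward eIF4E1b and eIF4E1c at an unadjusted p under 0.05), and the smallest adjusted p was 0.0205 for KLF11 (ENSDARG00000030844). edgeR at 0.05 also called 0, and DESeq2 at 0.05 called 2 toward eIF4E1c. Zygotic activator counts became 1 without eIF4E1c RIP replicate 1 or 2 (toward eIF4E1b), and 1 without eIF4E1c RIP replicate 2 (toward eIF4E1c). Small non-coding RNA genes were nearly out of reach, with 4 of 2992 tested.

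Stage and tissue markers were read as levels. Of 15 maternal markers all were tested, and DAZL was the only one called. BTG4 (ENSDARG00000035171), a maternal factor for mRNA clearance, had 5799.6, 6663 and 9819 normalized counts in eIF4E1b RIP, against 6084 and 7509 in eIF4E1c RIP, and h1m (ENSDARG00000102892), the maternal linker histone, had 4235, 7214 and 14165 normalized counts in eIF4E1b RIP, against 12764 and 13038 in eIF4E1c RIP, with overlapping groups in both cases. Zygotic markers were near 0: summed over 15 genes they reached 65.2, 40.7 and 37.4 normalized counts in eIF4E1b RIP, against 24.7 and 82.5 in eIF4E1c RIP, and 7 to 12 of the 15 had no reads, tbxta and sox32 among them in both eIF4E1c RIP libraries. Markers of other tissues, 95 genes, summed to 443, 604 and 874 normalized counts in eIF4E1b RIP, against 808 and 497 in eIF4E1c RIP, with 65 to 83 of them at 0.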

How the data were processed

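RNA was sequenced from anti-GFP immunoprecipitates (RIP) and inputs of 8-cell zebrafish embryos. The authors deposited raw read counts per gene (GRCz11), and their notes name Trim Galore 0.5.0, Bowtie2 2.3.4.1 and featureCounts of Subread 1.6.2. The annotation release, use of strand and treatment of reads that map to several genes are not given in the sources used here, so counts of near-identical or overlapping genes are uncertain. RIP libraries were made with the SMARTer Ultra Low kit and inputs with the SMARTer Stranded kit.

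Groups came from the sample titles. The 5 RIP libraries were fitted with DESeq2 1.42.0 (R 4.3.3; median-of-ratios size factors, Wald test, independent filtering, unshrunken fold changes), with Benjamini-Hochberg adjusted p under 0.005 over all tested genes. An exact permutation test of 3 against 2 libraries cannot go below p = 0.1. The alternatives were edgeR 4.0.16, other scalings, filters and thresholds, thinning, all 11 libraries, a replicate block and leaving out each library. The procedure was run on simulated counts with 200 changed genes. These were drawn with the same spread for every gene and both groups. The run therefore cannot show how calls behave under the wider spread between the eIF4E1c RIP libraries. Symbols came from a table of gene IDs, with 29201 of 32520 IDs matched.

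Genes given by name are the baits, the top 15 per direction, up to 4 called members of each list with the smallest adjusted p, and stage markers. The top 15 have a symbol, the smallest adjusted p and groups that do not overlap. Only genes named as histones were left out of them, so genes of the clone set were not. Further called members were named after their values were seen. The members and lists were chosen with earlier results of these data known. Values of a few called genes are not reported here.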

Additional observations from a re-analysis of the deposited data

How the results depend on the processing

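Calls toward eIF4E1b and eIF4E1c numbered 486 and 637 with DESeq2. They numbered 1206 and 1414 at an adjusted p under 0.05, 1573 and 1589 with all 11 libraries in one fit, and 2 and 2 with edgeR at 0.005. Scaling to total counts gave 280 and 581, moving the median of all genes by -0.11 on the log2 scale and the share of calls toward eIF4E1b to 32.5%, against 43.3%. With TMM size factors, a filter of at least 10 counts in 2 libraries, no independent filtering, thinning to the shallowest library, and edgeR at 0.05, both counts stayed within 1.5 times. Leaving out 1 library gave 155 to 1013 calls toward eIF4E1b and 283 to 1156 toward eIF4E1c, the lowest without eIF4E1b RIP replicates 2 and 3 and the highest without eIF4E1c RIP replicate 2. The share toward eIF4E1b was 56.2% without eIF4E1c RIP replicate 1. Where 1 eIF4E1c library was left, it was assumed to vary like the eIF4E1b libraries. The causes were not tested.

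With the replicate number as a block the counts were 194 and 253. Deviations of same-numbered libraries from their group means correlated with 0.08 and 0.05 over 2 pairs. With 2 eIF4E1c libraries these deviations mirror each other, so the 2 values are not independent. Whether same-numbered libraries share more than a number cannot be told from them. For the second eIF4E1c RIP library the number itself is uncertain, since its label and its deposited table carry different ones, so the block and the second correlation rest on the label. Under the block the log2 fold change of GSC, a zygotic marker near 0 counts, was 0.51, against -0.71, with no call in either fit.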

Other observations

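Several pairs of related genes were called in opposite directions, and these were picked out after their values were seen. The difference within a pair was not tested. DCAF5 and DCAF15, which both encode substrate receptors of CUL4 ligases, had log2 fold changes of 2.92 and -4.52. The synaptobrevin genes vamp2 and VAMP3 had 2.75 and -2.77. The H4K20 methyltransferase duplicates kmt5ab and kmt5aa had 1.35 and -2.24.

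Of the genes called toward eIF4E1b, 33 had 0 counts in both eIF4E1c RIP libraries, and of those called toward eIF4E1c, 5 had 0 counts in all 3 eIF4E1b RIP libraries. Fitted fold changes of these genes depend on the model and are no bounds.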
